A study of Mus musculus with 18 samples.

Results

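The thick ascending limb of the loop of Henle was followed here through 8 of its marker and transport genes: Slc12a1, Umod, Kcnj1, Bsnd, Cldn16, Cldn19, Ptger3 and Casr. The genes were chosen by name for their known place in this segment, by a rule that uses no measured value but with earlier results of these data known. They are 8 of the 24062 gene rows measured. The measurement was RNA sequencing of kidney cortex from C57Bl/6 mice, in 18 libraries that form 6 groups of 3. The mice were Klf6fl/fl, which carry the floxed Klf6 gene (fl/fl below), or Klf6PTKO, the knockout of Klf6 in the proximal tubule (PTKO below). Each genotype has a group given the vehicle DMSO, a group given aristolochic acid I (AAI) for 3 weeks, and a group given AAI for 3 weeks and then left for 3 weeks of remodeling, called 6 weeks here as in the sample titles. AAI is a plant compound that injures the proximal tubule. The deletion was aimed at the proximal tubule and not at the thick ascending limb. The Cre driver, the AAI dose, the age of the mice and the time of DMSO sampling are not given in the sources used here. A single DMSO group per genotype serves as control for 3 and for 6 weeks, so those 2 comparisons share their controls. Nothing in the labels says whether libraries are different animals, and each p-value measures only how much these libraries vary, which may be technical.

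The thick ascending limb reabsorbs salt without water and so dilutes the tubular fluid and feeds the concentrating gradient of the medulla. The cotransporter NKCC2, made from Slc12a1, brings sodium, potassium and chloride into the cell. Kcnj1 encodes the potassium channel ROMK, which returns potassium to the lumen, and Bsnd encodes barttin, the partner of the chloride channels of the basolateral membrane. The voltage that this builds up drives calcium and magnesium between the cells through pores made of Cldn16 and Cldn19. Casr encodes the calcium-sensing receptor and Ptger3 a prostaglandin E2 receptor, and both restrain salt or calcium transport in this segment. Umod encodes uromodulin, the most abundant protein of normal urine. Inherited loss of Slc12a1, Kcnj1 or Bsnd function causes forms of Bartter syndrome, and loss of CLDN16 or CLDN19 causes familial hypomagnesemia with hypercalciuria. The segment begins in the outer medulla and ends in the cortex at the macula densa, so a piece of cortex holds only its upper part and any medulla taken along adds to it.

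The libraries held between 11722625 and 27213219 reads, and all 8 genes had reads in every library and passed the filter on low values, which left 14604 genes to test. Differences are between group means of log2(CPM + 1), fitted with limma over all 18 libraries, and a gene was called higher or lower at a p under 0.05 after Benjamini-Hochberg adjustment over all genes tested (adjusted p). The smallest total over the 3 libraries of a group was 535 reads, for Cldn16 in PTKO mice given DMSO. Klf6, the targeted gene, lay at 39.2 to 42.3 CPM, the reads of a gene scaled to the total of its library, in the fl/fl DMSO libraries and at 40.2 to 56.7 CPM in those labelled PTKO, and did not differ between the genotypes in DMSO, at 3 weeks or at 6 weeks (adjusted p = 1.0, 0.90 and 0.58). Whole cortex was measured and no exon was counted apart, so this neither shows nor excludes the deletion, and PTKO means the libraries labelled so. As deposited, the median gene lay 0.36 to 0.45 log2 units above DMSO in the 4 AAI comparisons, and changes of the members are read against that shift. For fl/fl at 3 weeks, 8466 genes were higher and 2651 lower as deposited, against 5353 and 4999 after median-of-ratios scaling, which sets each library by its median gene and brings the median gene to 0.03. The like splits were 8733 and 2036 against 4978 and 4746 for fl/fl at 6 weeks, 8354 and 2032 against 4807 and 4568 for PTKO at 3 weeks, and 7842 and 1659 against 4193 and 4215 for PTKO at 6 weeks. Some libraries stood apart. Slc14a2, a urea transporter gene of the medulla, was above 100 CPM in 2 libraries, at 137 CPM in fl/fl 6 weeks replicate 1 and at 211 CPM in PTKO 6 weeks replicate 3. Adipoq, a fat cell gene, was above 5 CPM in 2 others, at 6.78 CPM in PTKO DMSO replicate 2 and 35.2 CPM in PTKO 6 weeks replicate 2. For many results that moved without these libraries, but not for all, the value without them is given beside it.

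Per the GENCODE M21 annotation of the mm10 build, Slc12a1 (ENSMUSG00000027202.12) lies on chr2:125152505-125230002, plus strand, and Umod (ENSMUSG00000030963.6) on chr7:119462711-119479282, minus strand. Kcnj1 (ENSMUSG00000041248.9) lies on chr9:32372493-32399197, plus strand, and Bsnd (ENSMUSG00000025418.7) on chr4:106483456-106492283, minus strand. Cldn16 (ENSMUSG00000038148.13) is at chr16:26463135-26482765 and Cldn19 (ENSMUSG00000066058.11) at chr4:119255414-119262438, both on the plus strand. Ptger3 (ENSMUSG00000040016.16) is at chr3:157566892-157645888, plus strand, and Casr (ENSMUSG00000051980.13) at chr16:36493696-36562141, minus strand. All 8 are protein-coding, and the values cover the whole gene. Antisense genes overlap Slc12a1 (Gm14002), Umod (Gm44588) and Cldn19 (Gm12927). Whether the counting used strand is not given in the sources used here, so reads of these 3 genes and of their antisense partners cannot be told apart.

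The sequences upstream of 4 genes are shown because Slc12a1 and Umod were the members that fell most in fl/fl mice at 3 weeks, while Cldn16 and Cldn19 were those that rose in fl/fl mice at 6 weeks. They are RefSeq promoter sequences of GRCm38.p6 (mm10), each ending at the base before the first annotated start of transcription, 5′ to 3′ on the strand of the gene. They cover chr2:125152350-125152504 for Slc12a1, chr7:119479283-119479512 for Umod, chr16:26462885-26463134 for Cldn16 and chr4:119255191-119255413 for Cldn19. Capitals mark the only match found to the motifs searched.

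Slc12a1: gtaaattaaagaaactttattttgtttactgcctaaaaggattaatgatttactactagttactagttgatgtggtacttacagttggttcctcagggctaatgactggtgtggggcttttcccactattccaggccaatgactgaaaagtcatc
Umod: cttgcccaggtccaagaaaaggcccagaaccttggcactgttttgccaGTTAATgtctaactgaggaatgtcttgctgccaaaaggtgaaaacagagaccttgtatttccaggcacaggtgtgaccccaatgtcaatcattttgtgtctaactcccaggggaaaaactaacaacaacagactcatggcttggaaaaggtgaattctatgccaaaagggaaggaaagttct
Cldn16: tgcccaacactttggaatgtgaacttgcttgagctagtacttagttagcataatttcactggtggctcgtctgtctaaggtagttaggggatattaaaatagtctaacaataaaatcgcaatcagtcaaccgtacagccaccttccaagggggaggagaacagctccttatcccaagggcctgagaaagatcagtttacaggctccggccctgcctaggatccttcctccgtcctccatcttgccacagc
Cldn19: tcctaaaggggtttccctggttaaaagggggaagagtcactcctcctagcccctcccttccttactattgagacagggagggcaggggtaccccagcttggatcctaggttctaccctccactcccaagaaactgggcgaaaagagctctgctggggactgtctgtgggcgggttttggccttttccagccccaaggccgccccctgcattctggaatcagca

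RefSeq promoters were matched for 7 of the 8 members. Short motifs were searched on both strands of the 250 bases upstream: the hexamer GTTAAT, the estrogen-related receptor half-site AAGGTCA, the AP-1 site TGANTCA and the octamer ATGCAAAT of POU factors. Among the members, GTTAAT was found upstream of Umod, 202 to 197 bases before its RefSeq start, and the other motifs matched none of their windows. Over 32851 promoter windows of the same length, 6.43% hold GTTAAT, 4.08% AAGGTCA, 6.75% TGANTCA and 1.6% ATGCAAAT. A match is a description of the letters and not a site.

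In DMSO-treated cortex the 8 genes spanned a wide range. Compared per length of the longest coding transcript, Umod was highest at a mean of 1526 CPM per kilobase over the 6 DMSO libraries, with a range of 997 to 2282. Slc12a1 followed at 165 CPM per kilobase (108 to 231) and Kcnj1 at 79.9 (69.5 to 97.0). Bsnd at 23.1 and Casr at 18.6 CPM per kilobase overlapped each other in range. Ptger3 at 9.50, Cldn16 at 8.70 and Cldn19 at 5.55 CPM per kilobase were the lowest, and their ranges overlapped too. The markers of the segment were thus present in every library, DMSO and AAI alike.

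**Figure D1:**
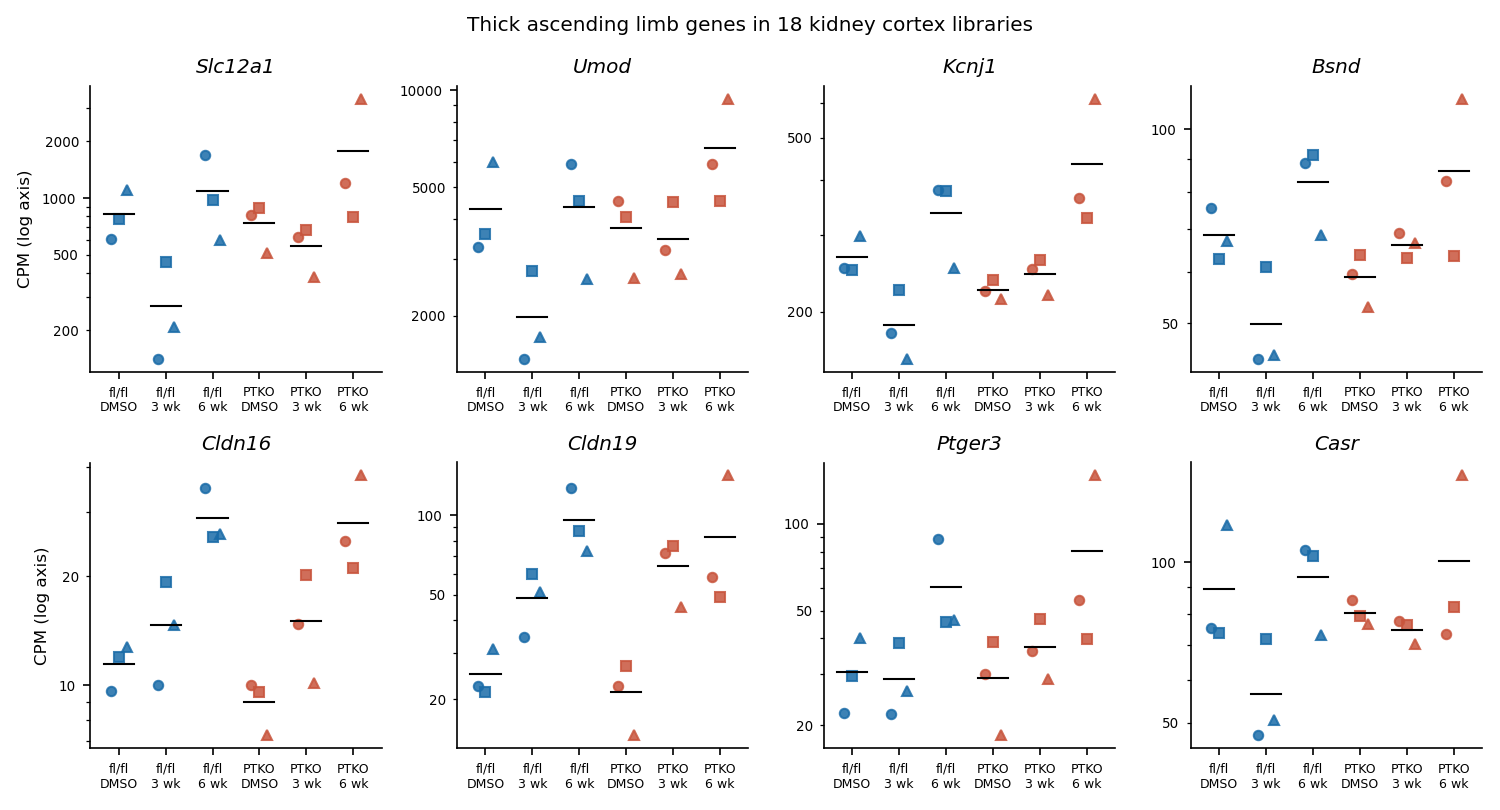
CPM of the 8 genes in each library, on log axes, for fl/fl (blue) and PTKO (red) mice given DMSO, AAI for 3 weeks (3 wk), or AAI for 3 weeks and 3 weeks of remodeling (6 wk). Circles, squares and triangles are replicates 1, 2 and 3, and black lines are group means. In fl/fl at 3 weeks Slc12a1 lies between 141 and 458 CPM, below all fl/fl DMSO libraries, while Cldn19 lies between 34.3 and 59.7 CPM, above them.

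Among the transporters, Slc12a1 moved most. Its level in fl/fl mice was 606, 775 and 1097 CPM with DMSO (replicates 1 to 3), 141, 458 and 207 CPM after 3 weeks of AAI, and 1690, 972 and 598 CPM at 6 weeks. All 3 libraries at 3 weeks lay below all 3 of DMSO, and at 6 weeks the groups overlapped. Slc12a1 in fl/fl mice fell by 1.75 on the log2 scale at 3 weeks (SE 0.51, adjusted p = 0.0052). At 6 weeks the difference from DMSO was 0.31 with a 95% confidence interval of -0.77 to 1.39. It was -0.07 without the 2 libraries high in Slc14a2. In a bulk sample, fewer cells of the segment and less Slc12a1 RNA per cell cannot be told apart. In PTKO mice the level was 810, 891 and 511 CPM with DMSO, 626, 675 and 380 CPM at 3 weeks, and 1197, 798 and 3344 CPM at 6 weeks. The 3 weeks libraries overlapped DMSO there, with a difference of -0.40 (95% confidence interval -1.48 to 0.68). At 6 weeks the PTKO difference was 1.04 (adjusted p = 0.083), 0.45 without replicate 3, the library high in Slc14a2, and 1.63 without the 2 libraries high in Adipoq (adjusted p = 0.029). Over the 18 libraries Slc12a1 spanned 23.7-fold, the widest span of the 8 genes. Its group means ran from 269 CPM in fl/fl at 3 weeks, through 560 in PTKO at 3 weeks, 737 in PTKO DMSO, 826 in fl/fl DMSO and 1086 in fl/fl at 6 weeks, to 1780 CPM in PTKO at 6 weeks, and each group overlapped the next in that order.

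Kcnj1 and Bsnd were also lower in fl/fl mice at 3 weeks and spanned narrower ranges. Kcnj1 in fl/fl mice lay at 249.5 to 298 CPM with DMSO, 156 to 224 CPM at 3 weeks and 252 to 380.1 CPM at 6 weeks. Bsnd lay at 62.8 to 75.4 CPM, 44.1 to 61.1 CPM and 68.6 to 91.1 CPM in the same groups. For both genes the 3 weeks libraries were all below DMSO. In fl/fl mice Kcnj1 fell by 0.53 (SE 0.20, adjusted p = 0.027) and Bsnd fell by 0.46 (SE 0.17, adjusted p = 0.023) on the log2 scale at 3 weeks. In PTKO mice neither gene passed at 3 weeks, with differences of 0.12 and 0.17. At 6 weeks in PTKO mice Kcnj1 was 328 to 613 CPM against 214 to 237 CPM with DMSO, and rose by 0.90 (SE 0.20, adjusted p = 0.0013), or by 0.62 without replicate 3 (adjusted p = 0.0060). Bsnd rose there by 0.50 (adjusted p = 0.017), which became 0.30 without replicate 3 (adjusted p = 0.11) and 0.11 after median-of-ratios scaling (adjusted p = 0.57).

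Umod, the secreted glycoprotein, tracked Slc12a1 with a smaller change. Its level in fl/fl mice was 3257, 3578 and 5991 CPM with DMSO, 1468, 2751 and 1713 CPM at 3 weeks, and 5928, 4536 and 2598 CPM at 6 weeks. The 3 weeks libraries were all below DMSO and the 6 weeks libraries spanned the DMSO range. Umod fell by 1.11 on the log2 scale in fl/fl at 3 weeks (SE 0.37, adjusted p = 0.013). Its difference at 6 weeks was 0.00 (95% confidence interval -0.79 to 0.79), or -0.26 without the 2 libraries high in Slc14a2. In PTKO mice the level was 4530, 4056 and 2618 CPM with DMSO, 3195, 4504 and 2689 CPM at 3 weeks, and 5904, 4529 and 9408 CPM at 6 weeks. The AAI libraries overlapped DMSO at 3 weeks, and at 6 weeks the lowest, 4529 CPM, was just under the highest of DMSO: the 3 weeks difference was -0.10 (95% confidence interval -0.90 to 0.69) and the 6 weeks difference 0.80 (adjusted p = 0.073), or 0.51 without replicate 3 (adjusted p = 0.28).

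Of the paracellular pore genes, Cldn19 was higher with AAI in all 4 comparisons, also in fl/fl at 3 weeks, where 5 of the other genes were lower. Cldn19 in fl/fl mice was 22.5, 21.3 and 31.0 CPM with DMSO, 34.3, 59.7 and 51.0 CPM at 3 weeks, and 127, 87.0 and 73.1 CPM at 6 weeks. In PTKO mice it was 22.5, 26.8 and 14.6 CPM with DMSO, 71.8, 76.3 and 44.9 CPM at 3 weeks, and 58.4, 49.1 and 142 CPM at 6 weeks. Every AAI library was above every DMSO library, in both genotypes. Cldn19 rose by 0.91 in fl/fl at 3 weeks (SE 0.35, adjusted p = 0.026), by 1.88 in fl/fl at 6 weeks (adjusted p = 0.00016), by 1.55 in PTKO at 3 weeks (adjusted p = 0.00089) and by 1.79 in PTKO at 6 weeks (adjusted p = 0.00037). The first of these did not pass after median-of-ratios scaling, at 0.46 (adjusted p = 0.24), nor with edgeR or DESeq2. After that scaling the other 3 passed, at 1.41, 1.12 and 1.41. Without the libraries high in Slc14a2 the 6 weeks rises were 1.66 in fl/fl and 1.33 in PTKO (adjusted p = 0.00013 and 0.0011).

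Cldn16 rose mainly at 6 weeks. In fl/fl mice it was 9.63, 11.9 and 12.8 CPM with DMSO, 10.04, 19.3 and 14.7 CPM at 3 weeks, and 35.0, 25.7 and 26.2 CPM at 6 weeks. In PTKO mice it was 10.04, 9.57 and 7.27 CPM with DMSO, 14.8, 20.1 and 10.1 CPM at 3 weeks, and 24.98, 21.0 and 37.9 CPM at 6 weeks. The 6 weeks libraries of each genotype lay above all its DMSO and 3 weeks libraries. Cldn16 rose by 1.26 in fl/fl (SE 0.26, adjusted p = 0.00039) and by 1.51 in PTKO (adjusted p = 0.00012) at 6 weeks, and by 0.81 and 1.14 after median-of-ratios scaling. At 3 weeks its difference was 0.30 in fl/fl (adjusted p = 0.31), with -0.14 after that scaling. In PTKO it rose by 0.65 at 3 weeks (adjusted p = 0.034) as deposited. That difference was 0.24 after median-of-ratios scaling (adjusted p = 0.42) and -0.11 after quantile normalization (adjusted p = 0.74).

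Of the receptors, Casr was lower in fl/fl mice at 3 weeks, as the transporters were, and Ptger3 was higher in PTKO mice at 6 weeks. Casr in fl/fl mice was 73.6 to 118 CPM with DMSO, 47.3 to 71.8 CPM at 3 weeks and 73.2 to 106 CPM at 6 weeks. It fell by 0.63 on the log2 scale at 3 weeks (SE 0.23, adjusted p = 0.021), with all 3 libraries below DMSO. In PTKO mice its 3 weeks and 6 weeks differences, -0.10 and 0.26, did not pass as deposited. After median-of-ratios scaling the first was -0.55 (adjusted p = 0.043). The second was -0.04 without the 2 libraries high in Slc14a2. Ptger3 in fl/fl mice was 22.1 to 40.1 CPM with DMSO, 21.8 to 38.5 CPM at 3 weeks and 45.5 to 89.0 CPM at 6 weeks. Its 3 weeks difference was -0.08 (95% confidence interval -0.95 to 0.79), and its 6 weeks difference 0.92 (adjusted p = 0.053), with the groups apart. It passed without the libraries high in Adipoq (adjusted p = 0.035), but not without those high in Slc14a2 (0.61, adjusted p = 0.094). In PTKO mice Ptger3 rose by 1.27 at 6 weeks (SE 0.41, adjusted p = 0.013), from 18.4 to 39.0 CPM with DMSO to 39.98 to 147 CPM. Without replicate 3 that difference was 0.72 (adjusted p = 0.0888).

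**Figure D2:**
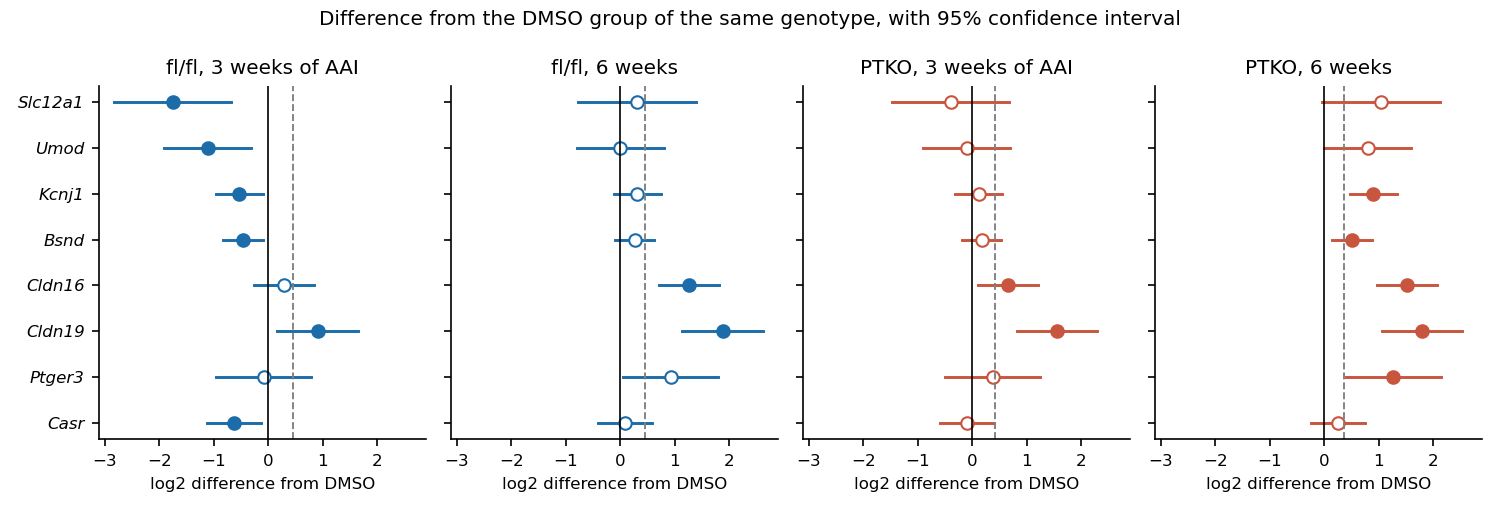
Fitted log2 difference of each gene from the DMSO group of its genotype, on log2(CPM + 1), with its 95% confidence interval. Filled points have an adjusted p under 0.05, and the dashed line is the median of all 14604 genes, 0.36 to 0.45. In fl/fl at 3 weeks Slc12a1, Umod, Kcnj1, Bsnd and Casr lie to the left of 0, and Cldn19 lies to the right of it in each panel.

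Counted over the 8 genes, 5 were lower and 1 was higher in fl/fl at 3 weeks, and after median-of-ratios scaling 5 were lower and 0 higher. Of all genes tested, 18.2% were lower and 58.0% higher in that comparison. The median log2 difference of the 8 was -0.49, against 0.45 over all genes. Without fl/fl DMSO replicate 3, fl/fl 3 weeks replicate 1 or fl/fl 3 weeks replicate 3, the number of the 8 called was 3, 2 and 2, and in each of these fits Slc12a1 was called lower, by 1.38 to 1.65 in size. By limma, 2 of 8 were higher and 0 lower in fl/fl at 6 weeks (all genes 59.8% higher and 13.9% lower), and the 8 genes' median of 0.31 lay near the 0.45 of all genes. In PTKO at 3 weeks 2 of 8 were higher and 0 lower (all genes 57.2% and 13.9%), with a median of 0.14 against 0.42. That count was 1 without PTKO DMSO replicate 3, PTKO 3 weeks replicate 1 or PTKO 3 weeks replicate 2. In PTKO at 6 weeks 5 of 8 were higher and 0 lower (all genes 53.7% and 11.4%), a share near that of all genes, with a median of 0.97 against 0.36. The count was 3 of 8 without PTKO DMSO replicate 3 or PTKO 6 weeks replicate 3. Without the 2 libraries high in Slc14a2 the 6 weeks medians of the 8 were 0.21 in fl/fl and 0.57 in PTKO. At an unadjusted p under 0.05 limma had 0 lower in these 3 comparisons. Neither edgeR nor DESeq2 called a member lower in them, except that DESeq2 called 1 lower in PTKO at 3 weeks.

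From 3 to 6 weeks 5 of the 8 members rose in fl/fl mice. Slc12a1 rose by 2.06 (SE 0.51, adjusted p = 0.017), Kcnj1 by 0.84 (adjusted p = 0.016), Bsnd by 0.72 (adjusted p = 0.014), Cldn16 by 0.97 (adjusted p = 0.025) and Casr by 0.73 (adjusted p = 0.04996). Over all genes tested 7.16% were higher. Umod, Cldn19 and Ptger3 had differences of 1.11, 0.97 and 1.004 (adjusted p = 0.060, 0.076 and 0.11). The count depends on the libraries and on the fit: it was 0 without fl/fl 3 weeks replicate 3, 0 without fl/fl 6 weeks replicate 2, 0 when only these 2 groups were fitted, 2 without fl/fl 3 weeks replicate 1 or fl/fl 6 weeks replicate 1, and 8 without PTKO 6 weeks replicate 3. In PTKO mice 2 of 8 were higher, against 2.92% of all genes: Kcnj1 by 0.78 (adjusted p = 0.025) and Cldn16 by 0.86 (adjusted p = 0.043). Neither passed without PTKO 6 weeks replicate 3, at 0.51 and 0.63, and the count was also 0 without PTKO 3 weeks replicate 1 or 3 and 4 without PTKO 6 weeks replicate 2. It was 1 without any of the fl/fl DMSO libraries, PTKO DMSO replicate 1 or 2, replicate 3 of fl/fl at 3 or 6 weeks, or PTKO 6 weeks replicate 1.

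Between the genotypes none of the 8 genes passed. In DMSO all 8 had lower means in PTKO, by 0.09 to 0.32 in size on the log2 scale, and 0 of 8 were called against 0.288% of all genes. At 3 weeks all 8 were higher in PTKO, by 0.03 to 1.19, and 0 of 8 were called against 14.2% of all genes. The largest difference was that of Slc12a1, 1.19 (95% confidence interval 0.12 to 2.27, adjusted p = 0.13), followed by Umod at 0.83 (adjusted p = 0.15). At 6 weeks 0 of 8 were called against 15.1%, with differences from -0.33 to 0.62. The limma fit had 3 of 8 with an unadjusted p under 0.05 at 3 weeks and 0 in DMSO and at 6 weeks, and edgeR and DESeq2 called none at any of the 3. With the Slc14a2 level as a covariate, Slc12a1 was called at 3 weeks (difference 1.06, adjusted p = 0.048), and likewise without the 2 libraries high in Slc14a2 (adjusted p = 0.047).

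The test of whether AAI acted differently in the genotypes gave no call either. The interaction was 0.35 to 1.35 in size at 3 weeks, above 0 for all 8 genes, and 0 of 8 were called against 0.281% of all genes. Slc12a1 had 1.35 (SE 0.72, adjusted p = 0.33) and Bsnd the lowest adjusted p, 0.19, at 0.63. At 6 weeks the interaction ran from -0.09 to 0.80, and 0 of 8 were called against 0.0685%. At 3 weeks 2 of 8 had an unadjusted p under 0.05 and at 6 weeks 0, and neither edgeR nor DESeq2 called a member. The fall of 5 genes in fl/fl at 3 weeks, which was not called in PTKO, is thus not shown to differ between the genotypes.

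Members were next compared with Slc12a1 inside each library, which removes what scales both alike, such as the scaling of the library. The log2 ratio of Cldn19 to Slc12a1 was -4.69, -5.12 and -5.10 in fl/fl DMSO, -2.01, -2.92 and -2.00 at 3 weeks, and -3.72, -3.47 and -3.02 at 6 weeks. In PTKO mice it was -5.11, -5.00 and -5.04 with DMSO, -3.11, -3.13 and -3.05 at 3 weeks, and -4.34, -4.00 and -4.55 at 6 weeks. AAI libraries were above DMSO in all 4 comparisons, with the ratio 6.33-fold and 2.97-fold higher in fl/fl at 3 and 6 weeks and 3.88-fold and 1.69-fold higher in PTKO. Each of these had an exact two-sided permutation p of 0.1, the smallest that 3 against 3 allows, and 0.2 after adjustment over 28 ratios, so this design cannot reach 0.05.

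Cldn16 and Ptger3 also gained on Slc12a1. The Cldn16 ratio was 4.14-fold and 1.94-fold higher in fl/fl at 3 and 6 weeks and 2.07-fold higher in PTKO at 3 weeks, with the groups apart. In PTKO at 6 weeks it was 1.39-fold higher and the groups overlapped. The Ptger3 ratio was 3.19-fold, 1.53-fold and 1.71-fold higher in the same 3 comparisons, again with the groups apart. All 7 ratios in fl/fl at 3 weeks were higher than with DMSO with the groups apart, from 1.56-fold for Umod to 6.33-fold for Cldn19. They share Slc12a1, the member that fell most there, so that all 7 means rose restates that fall and is not 7 separate results. At 6 weeks the ratios of Umod, Kcnj1, Bsnd and Casr overlapped DMSO in both genotypes. The ratio shows unequal change and not which of the genes changed.

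**Figure D3:**
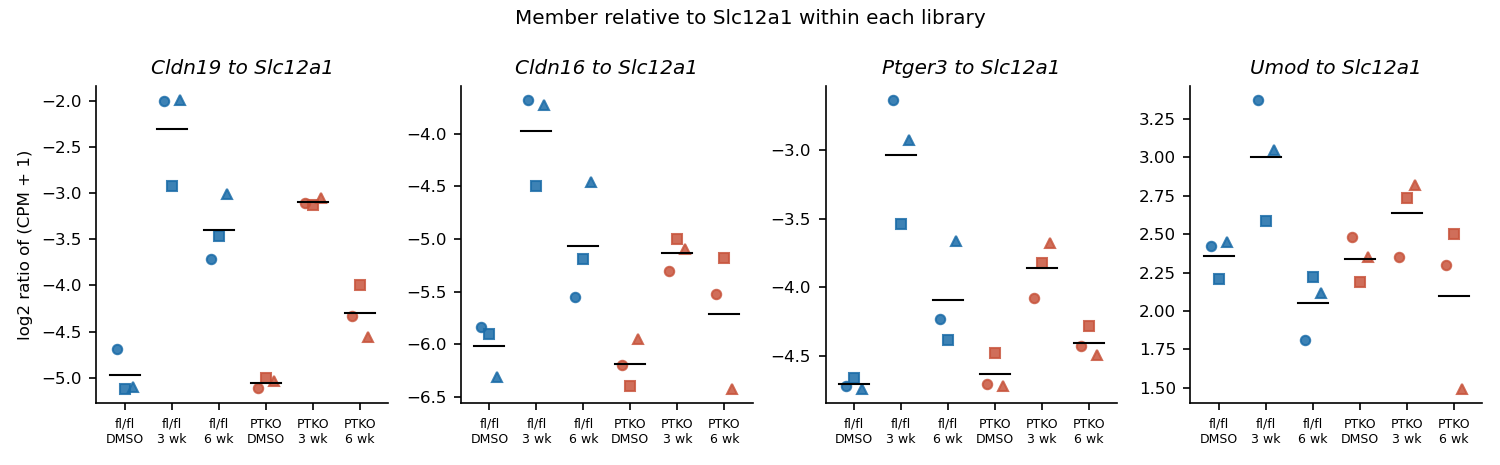
Log2 ratio of Cldn19, Cldn16, Ptger3 and Umod to Slc12a1, from CPM + 1, in each library, with group means as black lines. Blue is fl/fl and red PTKO, and circles, squares and triangles are replicates 1, 2 and 3. The Cldn19 ratio lies at -5.12 to -4.69 in the DMSO libraries and at -4.55 or above in the AAI libraries.

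The 8 genes varied together within groups and more than most genes did. The correlation of their deviations from the group means was above 0 in all 28 pairs of genes, from 0.56 to 0.95 with a median of 0.84 over the 18 libraries, which share their scaling. The pooled standard deviation of Slc12a1 within groups was 0.71 log2 units, larger than that of 99.2% of the genes tested, where the median was 0.18. Ptger3 at 0.57, Umod at 0.49 and Cldn19 at 0.49 exceeded 98.2%, 96.4% and 96.4% of genes, and Bsnd was the steadiest at 0.23.

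Slc14a2, a marker on the list of inner medulla and thin limb genes, was singled out after its values were seen and moved with this spread. It ranged from 0 to 211 CPM over the libraries. Within 5 of the 6 groups the 3 libraries had the same order in Slc14a2 as in Slc12a1, and the correlation of the within-group deviations was 0.78. Slc14a2 was 0, 26.9 and 20.5 CPM in fl/fl DMSO, 4.67, 21.1 and 10.5 CPM at 3 weeks, and 137, 38.5 and 23.6 CPM at 6 weeks. In PTKO it was 2.40, 11.6 and 0.65 CPM, 17.9, 25.9 and 5.35 CPM, and 50.7, 23.6 and 211 CPM in the same order. Of the 5 inner medulla and thin limb markers, 3 rose in fl/fl at both times and in PTKO at 3 weeks, namely Cldn4, Cryab and Slc4a11. In PTKO at 6 weeks 4 of 5 rose, with Slc14a2 added, and the list's median of 3.01 was the highest of the 4 comparisons. In these comparisons 53.7% to 59.8% of all genes were higher. The summed level of all 5 was 52.7 to 139 CPM in DMSO libraries and 465 to 754 CPM in AAI libraries. Slc14a2 itself overlapped DMSO in fl/fl at 3 weeks, so the sum does not stand for each marker and is no measure of medullary tissue.

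With Slc14a2 as a covariate, Slc12a1 was lower in fl/fl at 3 weeks by 1.90 in size (adjusted p = 0.00010), and also lower in PTKO at 3 weeks, by 1.03 in size (adjusted p = 0.019). Cldn19 stayed higher in all 4 AAI comparisons, by 0.82 and 1.31 in fl/fl and 1.15 and 0.92 in PTKO. Cldn16 stayed higher at 6 weeks, by 0.83 in fl/fl and 0.85 in PTKO. Kcnj1, Bsnd and Ptger3 in PTKO at 6 weeks did not pass with the covariate, at 0.49, 0.29 and 0.11. The covariate was added after the data were seen, and whether medullary tissue in the samples had a part in the results was not tested beyond these values.

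**Figure D4:**
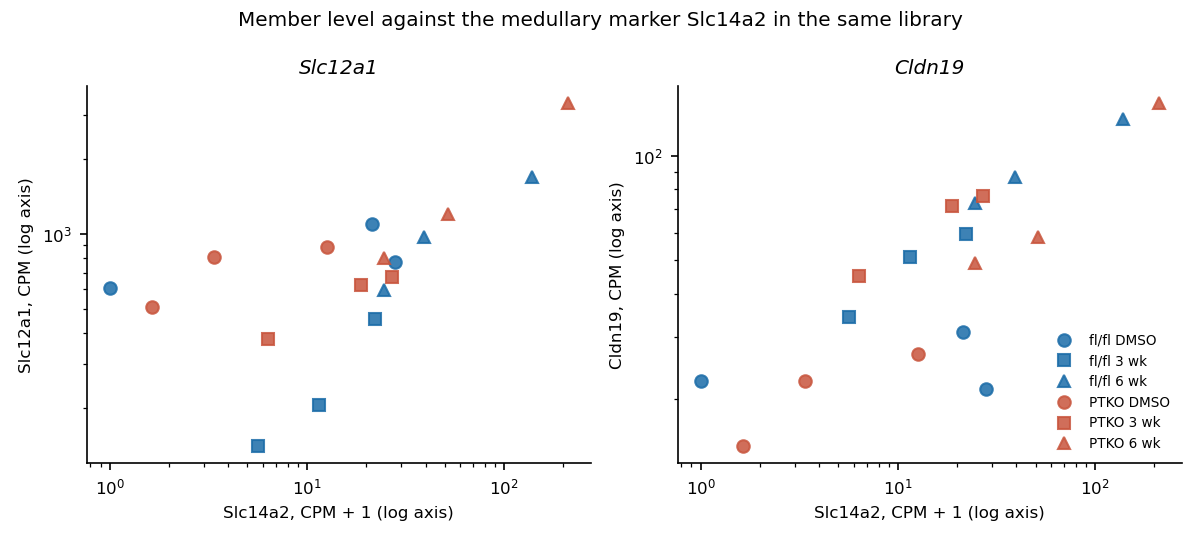
Slc12a1 (left) and Cldn19 (right) in CPM against Slc14a2 in CPM + 1 in the same library, all axes logarithmic, with blue for fl/fl, red for PTKO, and circles, squares and triangles for DMSO, 3 weeks and 6 weeks. The 2 libraries with Slc14a2 at 137 and 211 CPM are the 2 highest for each gene, and the fl/fl 3 weeks libraries lie below the others in Slc12a1 at like Slc14a2 levels.

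Other transport genes of the segment, a list of 13 of which 12 were tested, also split. Of these, 5 were lower and 2 higher in fl/fl at 3 weeks. In the AAI comparisons 11.4% to 18.2% of all genes were lower and 53.7% to 59.8% higher. Cldn10, a claudin gene, went from 172 to 191 CPM with DMSO to 35.8 to 55.7 CPM, and fell by 1.94 (adjusted p = 7.8e-07). The value covers the whole gene, so its transcript forms, and the cells they come from, were not told apart. The sodium-proton exchanger Slc9a3 fell by 2.09 and the sodium pump subunit Fxyd2 by 1.15, but both are also abundant in the proximal tubule. Cldn3, a sealing claudin, rose by 2.65 in fl/fl and 2.68 in PTKO at 3 weeks, and by 3.05 and 3.01 at 6 weeks. Slc4a7, a bicarbonate transporter, rose by 0.99 and 0.97 in fl/fl and by 1.18 and 1.03 in PTKO at 3 and 6 weeks. At 6 weeks in fl/fl the list had 2 higher and 4 lower, and in PTKO 2 higher and 4 lower at 3 weeks and 4 higher and 1 lower at 6 weeks. Without the 2 libraries high in Slc14a2 the 6 weeks counts were 3 and 4 in fl/fl and 3 and 2 in PTKO. Between the genotypes, Slc9a3 and the potassium channel gene Kcnj16 were higher in PTKO at 3 weeks, by 0.88 and 0.56, and Slc9a3 and Fxyd2 at 6 weeks, by 0.73 and 0.52. Each time 2 of the 12 genes were called. Of all genes, 14.2% were called between genotypes at 3 weeks and 15.1% at 6 weeks, a share near that of the list. Of 9 proximal tubule markers, 7 were higher in PTKO at 3 weeks (median 1.003) and 3 at 6 weeks (median 0.54). Their part in the differences of Slc9a3, Kcnj16 and Fxyd2 was not tested.

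Of 7 other markers, Egf fell furthest. Egf encodes epidermal growth factor, made in the thick ascending limb and the distal convoluted tubule. It was 1956, 1970 and 2366 CPM in fl/fl DMSO, 41.9, 183 and 56.4 CPM at 3 weeks, and 441, 918 and 235 CPM at 6 weeks. In PTKO it was 2087, 2074 and 1762 CPM, then 246, 387 and 235 CPM, then 1035, 708 and 1048 CPM. All AAI libraries were below all DMSO libraries, and Egf fell in all 4 comparisons, with log2 differences of -4.77 and -2.191 in fl/fl and -2.80 and -1.10 in PTKO at 3 and 6 weeks. At 3 weeks Egf was higher in PTKO than in fl/fl by 1.88 (SE 0.50, adjusted p = 0.017). It was the only one of the 7 called between genotypes at that time, against 14.2% of all genes. Ppp1r1a, a phosphatase inhibitor, fell by 1.84 and Tmem207 by 2.38 in fl/fl at 3 weeks, and rose by 1.55 and 2.28 from 3 to 6 weeks. In PTKO at 6 weeks 4 of the 7 were higher and 1 lower, near the 53.7% and 11.4% of all genes. Without the 2 libraries high in Slc14a2, 3 were higher: Kng2 went from 0.85 to 0.50, Enox1 from 0.77 to 0.57 and Tmem52b from 0.59 to 0.51, while Ppp1r1a, at 0.80 with them, did not pass at 0.37 (adjusted p = 0.30). Kng2 was 238, 182 and 429 CPM in that group and 108 to 184 CPM with DMSO. Egf there was -1.20 without those libraries (adjusted p = 0.072).

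The macula densa, the plaque of cells at the end of the segment, was read from 5 genes. Over all genes 53.7% to 59.8% were higher and 11.4% to 18.2% lower in the AAI comparisons. Of the 5, 2 were higher and 1 lower in fl/fl at 3 weeks and 3 and 1 in the other AAI comparisons. A count of 3 of 5 higher is near the share of all genes. Without the 2 libraries high in Slc14a2, 2 were higher at 6 weeks in each genotype, and Slc9a2 in PTKO did not pass (-0.28, adjusted p = 0.067). Pappa2, a protease of growth factor binding proteins, was 0.48 to 1.94 CPM in the DMSO libraries and 5.20 to 16.7 CPM in the AAI libraries, and rose in all 4 comparisons, by 2.13 to 2.66. Ptgs2, the prostaglandin synthase COX2, rose by 1.68 and 0.87 in fl/fl and by 2.16 and 1.11 in PTKO, and was lower at 6 than at 3 weeks in both, by 0.81 and 1.06 in size. Slc9a2, a sodium-proton exchanger, fell by 1.13 in fl/fl at 3 weeks and was higher in PTKO than in fl/fl at that time by 0.81. Ramp3 was called lower in PTKO than in fl/fl at 3 weeks. At 6 weeks Ramp3 and Slc9a2 were again the genes of the list called between genotypes, 1 higher and 1 lower. Of all genes 14.2% were called between genotypes at 3 weeks and 15.1% at 6 weeks. Nos1, the neuronal nitric oxide synthase, stayed under 3 CPM in every library. Ptgs2 is also made by other cells of the cortex.

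Of 10 genes of the kinase pathway that switches NKCC2 on, Stk39, which encodes the kinase SPAK, rose in all 4 comparisons, by 0.75 to 1.33. Klhl3, an adaptor that marks WNK kinases for degradation, fell by 1.36 and 1.02 in fl/fl, and its partner Cul3 by 0.45 and 0.26. Wnk1 fell by 0.54 in fl/fl at 3 weeks. In all, 1 was higher and 4 lower in fl/fl at 3 weeks, and 2 and 2 at 6 weeks. In PTKO 2 were higher and 1 lower at 3 weeks, and 4 higher at 6 weeks, or 2 without the 2 libraries high in Slc14a2. Over all genes 53.7% to 59.8% were higher and 11.4% to 18.2% lower in these comparisons, so the shares of the list that were higher lie below those of all genes.

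Among 7 genes of protein processing and trafficking, Muc1, a membrane mucin, went from 11.0 to 18.7 CPM with DMSO to 113 to 282 CPM with AAI, and rose by 2.96 to 3.46 in the 4 comparisons. Maged2, a gene of transient Bartter syndrome, rose by 1.39 to 1.78, and Mal, a sorting proteolipid, by 0.78 to 1.39. Hpn, the protease that releases uromodulin and is abundant in the proximal tubule as well, fell by 1.38 and 0.92 in fl/fl and by 0.77 and 0.58 in PTKO. Of the 7, between 4 and 6 were higher and 1 lower in each comparison, against 53.7% to 59.8% higher and 11.4% to 18.2% lower over all genes. Whole cortex was measured, so the cells in which Muc1, Maged2 and Mal rose were not told apart.

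Of 13 hormone receptor and cAMP genes, 7 were higher and 2 lower in fl/fl at 3 weeks, 7 and 1 at 6 weeks, and in PTKO 6 and 1, then 9 and 1. Over all genes 53.7% to 59.8% were higher and 11.4% to 18.2% lower in these comparisons, so the shares of the list are near those of all genes. The prostaglandin receptor gene Ptger4 rose by 2.35 to 3.07 and the calcitonin receptor gene Calcr by 0.999 to 1.46 in the 4 comparisons, and the parathyroid hormone receptor gene Pth1r fell by 1.06 to 1.58. Calcr stayed under 4 CPM in every library, and Ptger4 and Pth1r are also expressed in other cells of the cortex.

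Of 13 transcription factors, 3 were higher and 4 lower in fl/fl at 3 weeks, 7 and 2 at 6 weeks, and in PTKO 7 and 2, then 8 and 1. Over all genes 53.7% to 59.8% were higher and 11.4% to 18.2% lower in these comparisons. The shares of the list that were higher at 6 weeks, and in PTKO at 3 weeks, are near those of all genes. Without the 2 libraries high in Slc14a2, 6 were higher in each genotype at 6 weeks. Tfap2a rose by 1.24 to 1.63 and Pax8 by 0.81 to 1.19 in the 4 comparisons. Esrrg, an estrogen-related receptor gene, fell by 0.98 and Lhx1 by 1.41 in fl/fl at 3 weeks. Pou3f3, needed for the segment to form, was higher in PTKO than in fl/fl at 3 weeks by 0.58, as was Esrrg by 0.55. These were the only 2 of the 13 called between genotypes at that time, a share near the 14.2% of all genes.

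**Figure D5:**
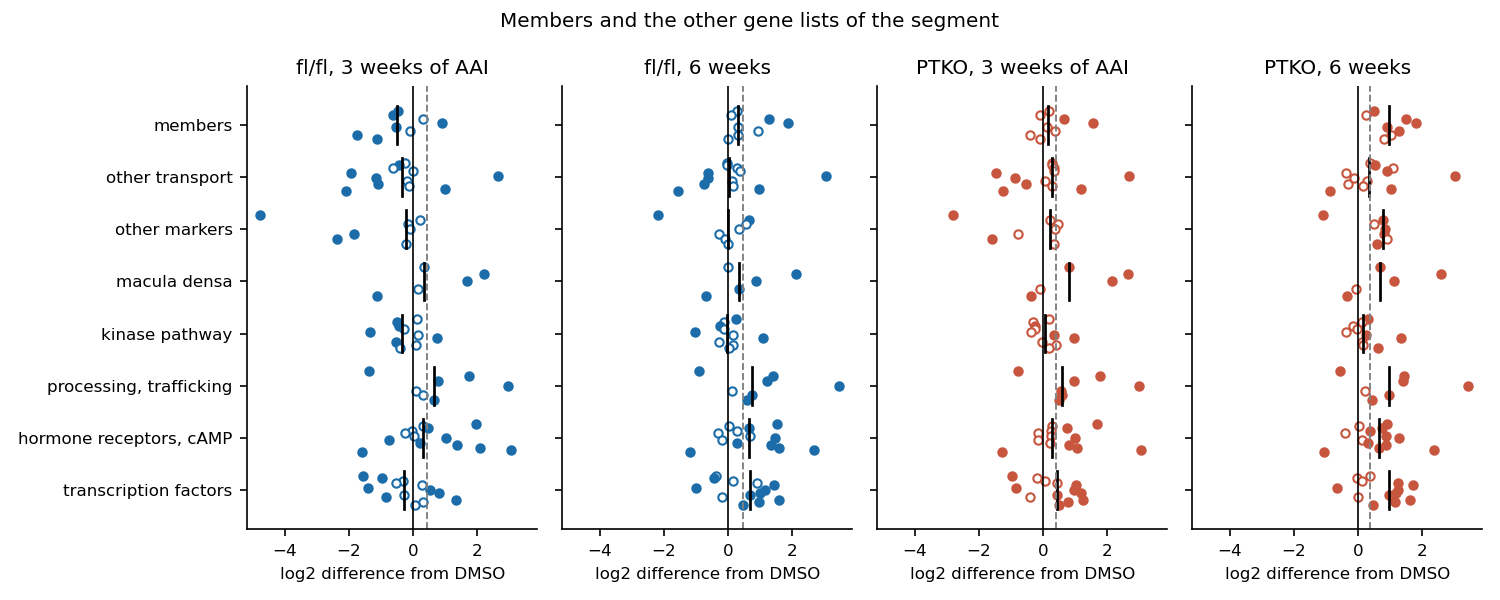
Log2 difference from DMSO on log2(CPM + 1) of the 8 members and of 7 lists of other genes of the segment, 1 point per gene, with list medians as black bars and the median of all genes dashed. Filled points have an adjusted p under 0.05. In fl/fl at 3 weeks the members' median of -0.49 lies left of the all-gene median of 0.45, and the point farthest left is Egf at -4.77.

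The genes most like Slc12a1 and Umod were found by correlation. Over the 18 libraries, and among 11448 tested genes with a mean of at least 5 CPM, those with the highest Pearson correlation to Slc12a1 on log2(CPM + 1) were Fa2h at 0.97, Mfsd4 at 0.95, and Tmem207, Ppp1r1a and Ppp1r1b at 0.94. For Umod they were Slc5a3 at 0.95, Pou3f3os and Fa2h at 0.94, Tmem207 at 0.93 and Ppp1r1b at 0.92. All of them were highest in PTKO 6 weeks replicate 3, the library with the most Slc14a2, so the correlations share that library. Tmem207 and Ppp1r1a are also on the list of other markers above. Without the 2 libraries high in Slc14a2, over 16 libraries, the correlations of these genes were 0.93 to 0.95 with Slc12a1 and 0.88 to 0.94 with Umod. By the same measure Umod correlated with Slc12a1 at 0.96, Casr at 0.92 and Kcnj1 at 0.91, against 0.58 for Cldn16 and 0.40 for Cldn19. Without the 2 libraries these were 0.95, 0.86, 0.83, 0.31 and 0.024.

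Markers of other cells moved in the same comparisons, in which 53.7% to 59.8% of all genes were higher and 11.4% to 18.2% lower. The 9 proximal tubule markers fell in fl/fl at 3 weeks in 9 of 9 cases, and their summed level went from 16677 to 17592 CPM to 2347 to 4276 CPM. The 6 macrophage markers, led by Lyz2, rose in all 4 AAI comparisons, from a sum of 116 to 163 CPM in fl/fl DMSO to 4367 to 7592 CPM at 3 weeks, and to 1426 to 2884 CPM in PTKO at 3 weeks. All 7 tubular injury genes rose in all 4, with Havcr1, the gene of KIM-1, at 0.75 to 2.17 CPM in DMSO and 116 to 841 CPM with AAI. The 6 fibroblast markers rose in fl/fl at both times and in PTKO at 3 weeks, and 4 of 6 in PTKO at 6 weeks. Of 6 distal convoluted tubule markers 4 were lower in fl/fl at 3 weeks, among them Pvalb by 3.51 and Slc12a3 by 0.67 in size, and 1 was lower in PTKO at 3 weeks. Podocyte markers rose in 6 of 6 cases in fl/fl at 3 weeks, and of the principal cell markers 3 of 8 rose and 2 fell. Of 7 intercalated cell markers 3 rose and 2 fell there. In PTKO at 6 weeks, where Kcnj1 and Bsnd were called higher, 6 of 8 principal cell markers rose and 0 fell (median 1.13). Of the intercalated cell markers 4 rose and 1 fell (median 0.75). Without the 2 libraries high in Slc14a2 these PTKO counts were the same. The part of these cells, and of RNA added by them, in the members' levels was not tested.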

How the data were processed

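RNA of kidney cortex was sequenced in 18 libraries of 6 groups, which were taken from the sample labels. The deposited values are CPM made by the authors, for 24062 gene rows. The submitters' processing notes name bcl2fastq 2.19, kallisto and mm10, and per the labels' protocols the libraries came from a stranded total RNA kit; their order and settings are not given in the sources used here. Whole reads could be recovered for 433116 of 433116 values (100% within 0.01 read), and read depth was 11722625 to 27213219. Of the gene rows, 27 carry dates in place of symbols and were kept unnamed. Every column of values belongs to a labelled library.

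The 14604 genes that reached 1 CPM in 3 or more libraries were fitted with limma 3.58.1 (R 4.3.3) on log2(CPM + 1), with 6 group means, 12 residual degrees of freedom and limma's mean-variance trend. All tests are two-sided, with adjustment by Benjamini-Hochberg over all genes tested, and a gene was called at an adjusted p under 0.05. Fold changes on this scale understate those of low genes. Confidence intervals are 95%. Ratios to Slc12a1 were compared by exact permutation. Scripts were tested on simulated data. The members and lists were chosen with earlier results of these data known. All 8 members are named; of each list up to 3 called genes with the smallest adjusted p were to be named, or else the most abundant gene, and always 5 further genes, of which Egf, Slc12a3 and Havcr1 are given and the others are not reported here. Other genes named were chosen after their values were seen. The alternatives tried were median-of-ratios and quantile scaling, another filter (5 CPM) or none, another pseudocount (0.1), only the groups compared, a replicate block, no variance trend, edgeR 4.0.16 and DESeq2 1.42.0 on the recovered reads, each library left out, and fits added after the data were seen.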

Additional observations from a re-analysis of the deposited data

How the results depend on the processing

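The number of the 8 genes called was taken again under each alternative. In fl/fl at 3 weeks it was 6, and 3 after quantile normalization. In PTKO at 3 weeks it was 2, and 1 with no filter, after quantile normalization and with edgeR. In PTKO at 6 weeks it was 5, and 3 after median-of-ratios scaling, with only the groups compared and without the 2 libraries high in Slc14a2, and 2 with the Slc14a2 covariate. From 3 to 6 weeks it was 5 in fl/fl, and 0 with only the groups compared and 1 with the covariate. In PTKO it was 2, and 1 with no filter or with the replicate block, 0 with only the groups compared, with the covariate or without the libraries high in Slc14a2, and 5 with DESeq2. For PTKO against fl/fl at 3 weeks it was 0, and 1 with the covariate or without those libraries. The cause was not tested. Cldn16 in PTKO at 3 weeks went from 0.65 to -0.11 after quantile normalization. With 1 library left out the counts ranged from 2 to 6 in fl/fl at 3 weeks, 2 to 3 in fl/fl at 6 weeks, 1 to 2 in PTKO at 3 weeks, 3 to 7 in PTKO at 6 weeks, 0 to 8 from 3 to 6 weeks in fl/fl and 0 to 4 in PTKO, and 0 to 0 in each genotype and interaction comparison.

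Over 1144 values of single genes under the other alternatives, 1078 kept their side of the threshold, 47 lost the call, 18 gained it and 1 reversed. With 1 library left out these were 1509, 61, 14 and 0 of 1584. Among those that kept their side, values called in neither fit changed sign in 68 and 40 cases. Counts over all genes moved by more than 1.5 times from 3 to 6 weeks (1932 in fl/fl, 562 to 2486; 1633 in PTKO, 367 to 2168), between genotypes (42 in DMSO, 18 to 113; 2077 at 3 weeks, 360 to 2705; 2198 at 6 weeks, 163 to 3765) and for the interactions (41, 6 to 588; 10, 0 to 250).

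Replicate numbers recur across groups. Over 45 pairs of samples that share a number, the correlation of their deviations ran from -0.37 to 0.49 with a median of 0.0082. This shows no pairing by number and cannot exclude one, because pairs of unlike number were not compared. The replicate block moved the count of 2 in PTKO from 3 to 6 weeks to 1 and changed no other count of members by more than 1.5 times. With 3 libraries a group the precision is limited: the 95% confidence interval of the Slc12a1 difference in fl/fl at 3 weeks ran from -2.83 to -0.68.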
